A study of Mus musculus with 5 samples.

Results

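Dividing and resting cells were compared within 1 library of Vγ6 γδ T cells sorted from the peripheral lymph nodes (pLN) of C57BL/6 mice. Of 1458 cells that passed the filters, 351 counted as dividing, which is 24.1% (21.9 to 26.4, exact binomial 95% interval). They were chosen by their own transcripts: at least 1 unique molecular identifier (UMI, the tag that counts a captured transcript once) of both Mki67 and Top2a, or at least 2 of either. Resting cells were the 831 with 0 UMIs of both genes, and the other 276 cells, with 1 UMI, entered neither side. The whole series held 7846 kept cells in 5 libraries.

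Mki67 encodes the Ki-67 protein that coats mitotic chromosomes, and Top2a the topoisomerase that untangles copied DNA; both are made from S phase to mitosis and are nearly absent in resting cells. A cell that divides first makes the enzymes, histones and helicases of DNA copying under E2F factors, and then the cyclins, motors and kinetochore proteins of mitosis under the MuvB, B-MYB and FOXM1 factors, which act through CHR elements and CCAAT boxes. Vγ6 cells are an innate-like γδ T cell subset that leaves the fetal thymus already committed to IL-17, settles in skin and other tissues, persists by self-renewal, and depends on IL-7 for survival.

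The study sorted Vγ4 cells of ear skin and Vγ6 cells of ear skin, pLN and thymus by flow cytometry from mice 8 weeks old and made 1 droplet library (Chromium 3' v2) of each. The pLN sample combined inguinal, brachial, axillary and superficial cervical nodes, and no treatment was stated for any group. The fifth library was a mixed pool of Vγ6 cells of 3 strains, TcrdCreER (lymph node), ACT-FLPe (thymus) and TcrdH2BeGFP (ear skin), aged 8 to 10 weeks, with no map from cells to strains. The number of mice behind a library was not given in the sources used here.

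Cells of 1 library are not replicates, so no test was made and the spread between mice is unknown. Intervals in parentheses are 95% intervals and cover counting error only. Levels are CPM, a gene's share of all UMIs summed over a class of cells in parts per 1000000. A gene counted as measured with at least 20 CPM on either side, and as higher or lower at a ratio of 2-fold or more. The pLN cells carried T cell and γδ T17 markers. Cd3g, a gene of T cells in general, had a UMI in all 351 dividing cells. The 12 γδ T17 markers summed to 3241 CPM in dividing and 7859 CPM in resting cells. Markers of other lineages were scarce, with summed levels, dividing before resting, of 9.27 and 15.0 CPM for αβ T cells, 19.5 and 19.8 for NK cells and ILC1, 72.8 and 213 for B cells, 45.4 and 81.1 for plasma cells and 28.3 and 41.6 for erythroid cells. Stromal markers stood at 33.8 and 45.0 CPM, keratinocyte markers at 36.6 and 55.2 and mast cell markers at 0.464 and 2.04. Dendritic and myeloid markers were the exception and are given with the MHC class II genes below. No doublets were removed in the main values, and Scrublet, a doublet caller, marked 1 cell of the library, a dividing one. Whether the 61 dividing cells of 10000 or more UMIs, described below, hold doublets could not be settled. Of the 1458 barcodes, 9 also occurred in the thymus library, 6 in the pool and 1 in the skin Vγ4 library.

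Dividing cells held far more captured RNA than resting cells. The median was 4607 UMIs per dividing cell, 1657.5 per cell with 1 marker UMI and 1499 per resting cell, a 3.07-fold gap between the outer classes. Median genes per cell were 1815 in dividing and 857 in resting cells. The middle 80% of dividing cells ran from 2166 to 12864 UMIs and that of resting cells from 1173 to 2597. Only 11 resting cells lay above the dividing median and 13 dividing cells below the resting median. Dividing cells, 24.1% of the library's cells, held 51.2% of its UMIs. The median share of mitochondrial UMIs was close in both, at 3.50% and 4.04%.

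**Figure D1:**
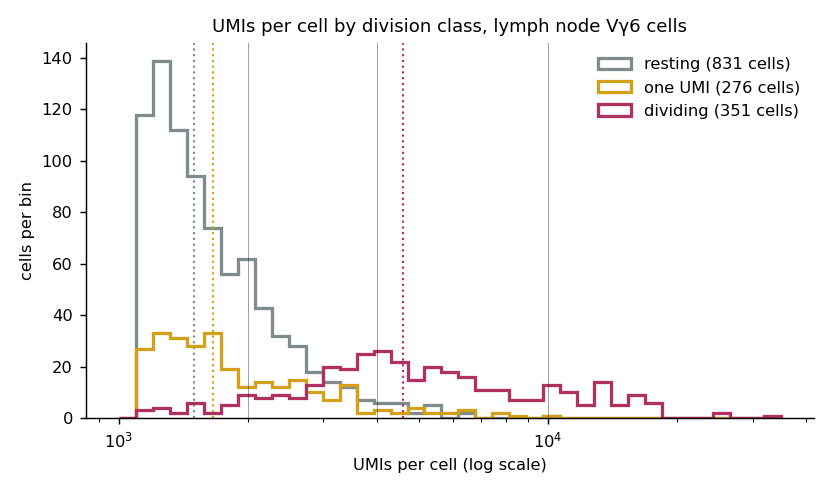
UMIs per cell (x, log scale) against the number of cells per bin (y) for the 831 resting, 276 one-UMI and 351 dividing pLN cells. Dotted lines mark the class medians of 1499, 1657.5 and 4607, and thin lines the depths of 2000, 4000 and 10000 UMIs used below.

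A cell with more UMIs has more chances to show 2 marker UMIs, so the rule itself draws deep cells. After each cell was thinned to 1500 UMIs, with 534 shallower cells left out, 191 of 924 cells (20.7%, 18.1 to 23.4) met the rule. Of the cells left out, 418 were resting, so this share is of a deeper set of cells than the 24.1% and the 2 are not like for like. To hold depth closer, genes are also given for cells of 2000 to under 4000 UMIs, 108 dividing and 181 resting. This range, called the narrow range below, was chosen after the data were seen. Their medians of 3166.5 and 2409 UMIs still differed. The dividing cells were further described in 3 depth classes: 136 with under 4000 UMIs, 154 with 4000 to under 10000 and 61 with 10000 or more. These 61 cells were 17.4% of the dividing cells and held 39.8% of their UMIs, and no resting cell was as deep.

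Of 5558 measured genes other than the 2 markers, 474 (8.53%) were at least 2-fold higher in dividing cells and 527 (9.48%) at least 2-fold lower. In the narrow range, 557 of 5596 genes (9.95%) were higher and 501 (8.95%) lower. Of the 474 higher genes, 298 (62.9%) were also at least 2-fold higher there, against 182 (34.5%) of the 527 lower genes. Across all measured genes the median log2 ratio was -0.07, and -0.04 in the narrow depth range. Scaling by TMM factors in place of total UMIs gave 637 higher and 368 lower genes, 63.4% of them higher against 47.4%, and moved the median log2 ratio to 0.08. Counted in UMIs per cell, the median gene was 3.31-fold higher in dividing cells and 88 genes had fewer UMIs per dividing cell. A lower CPM below is thus, for most genes, a smaller share of a larger RNA content.

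The rule set the levels of Mki67 and Top2a, which are given as description. Dividing cells held 646 UMIs of Mki67 and 2173 of Top2a; 255 cells had both genes, 83 had Top2a alone and 13 Mki67 alone. At the limit, the 70 cells with exactly 2 marker UMIs stood between the cells with 1 and those with more for several other genes. Rrm2 was at 129 CPM in cells with 0 marker UMIs, 336 with 1, 781 with 2, 1211 with 3 to 9 and 1326 with 10 or more. Il7r ran the other way, at 1022, 739, 365, 159 and 183 CPM. The cells with 1 marker UMI thus lay nearer to the resting cells for both genes.

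The machinery of DNA copying was higher in dividing cells of each depth class. The licensing and fork list summed to 6099, 8367 and 6933 CPM in the 3 classes of dividing cells and to 1812 CPM in resting cells of the narrow range. Of 33 measured genes of origin licensing and the replication fork, 29 were at least 2-fold higher and none lower; the median log2 ratio was 1.89. Mcm10, which helps to start the replicative helicase, had 44 UMIs in dividing and 0 in resting cells, at least 9.98-fold higher against a floor of 3 counts over the group. Gins2, a subunit of the GINS helicase complex, was at 66.3 CPM in dividing and 10.2 CPM in resting cells, 6.49-fold higher (3.8 to 11.9), and 3.01-fold (0.963 to 11.0) in the narrow range. The sliding clamp Pcna was at 535 and 131 CPM, 4.07-fold higher (3.49 to 4.76). 2810417H13Rik, the older symbol of the clamp-binding factor Pclaf, reached 2837 CPM against 345 CPM, 8.23-fold higher (7.51 to 9.03), and 6.77-fold (5.76 to 8.00) in the narrow range. Its level in the depth classes of dividing cells was 2436, 3447 and 2364 CPM, so each class was above the resting level.

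Nucleotide synthesis genes followed, with 15 of 23 higher, none lower and a median log2 ratio of 1.58. Rrm2 (ENSMUSG00000020649, chr12:24708241-24714146, GRCm38), the regulated subunit of ribonucleotide reductase that makes deoxynucleotides, had the highest ratio outside the histones, by the lower bound of its interval, among genes with at least 100 CPM and a UMI in at least 20% of dividing cells. It stood at 1208 CPM in dividing and 129 CPM in resting cells, 9.33-fold higher (8.05 to 10.9), and at 8.89-fold (6.75 to 11.9) in the narrow depth range. Its partner Rrm1 was 5.33-fold higher (3.86 to 7.54) and thymidine kinase, Tk1, 5.84-fold (3.97 to 8.91). Of 19 measured in the narrow range, 10 were higher and 3 lower, with a median of 0.99.

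Replication histones had the highest median of the lists over all cells. Of 11 measured, 10 were higher and the median log2 ratio was 3.07. In the narrow range it was 2.32, below the medians of the spindle, mitotic kinase and kinetochore lists given below. Hist1h2an, a histone gene outside the list, had 255 UMIs in dividing and 2 in resting cells, a ratio of 86.8 (23.8 to 720). Hist1h2ap stood at 783 and 15.7 CPM, 49.9-fold higher (33.2 to 79.0), and Hist1h2ae at 568 and 18.4 CPM, 30.9-fold (21.1 to 47.1). The linker histone Hist1h1b stood at 948 and 51.8 CPM, 18.3-fold (14.6 to 23.3). Near-identical copies of these H2A genes share reads, so the split among them is uncertain, and replication histone mRNA mostly lacks the poly(A) tail that the 3' kit primes on. In 5.41% of dividing cells and 37.7% of resting cells, no UMI of the histone list was present; the depths of the classes differ, as above.

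Upstream of these, the G1/S list was mixed, with 8 of 15 higher, 1 lower and a median log2 ratio of 1.30. Cyclin E1, Ccne1, stood at 59.8 and 12.9 CPM, 4.62-fold higher (2.84 to 7.92), and the E2F factors E2f1 and E2f8 at 4.18-fold (2.62 to 6.98) and 5.82-fold (3.11 to 12). E2f1 was 1.82-fold higher (0.704 to 4.89) in the narrow range. The D cyclins, which carry mitogen signals into G1, did not share this: Ccnd3 was at 198 and 181 CPM, and Ccnd2 at 179 and 457 CPM, 2.55-fold lower (2.25 to 2.90). Ccnd2 was also 2.03-fold lower (1.5 to 2.77) in the narrow range, but had 1.10 UMIs per dividing and 0.807 per resting cell.

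Chromatin and repair genes of dividing cells were higher as groups. Chromatin factors and histone variants had 23 of 25 higher and a median log2 ratio of 1.61; they summed to 23119 CPM in dividing and 7576 CPM in resting cells. Among them, the nucleosome-binding Hmgn2 stood at 1409 and 313 CPM, 4.51-fold higher (4.08 to 4.98). Uhrf1, which guides copying of DNA methylation, was 5.86-fold higher (3.90 to 9.17), and the helicase Hells 5.38-fold (4.32 to 6.78) but 2.54-fold (1.66 to 3.94) in the narrow range. Repair and checkpoint genes had 12 of 13 higher. Brca1, which acts in repair of DNA breaks, had 44 UMIs against 1, a ratio of 29.9 (5.10 to 1209). Cohesin and condensin had 10 of 15 higher. Among them, the condensin subunits Smc2 and Ncaph were 5.26-fold (4.29 to 6.51) and 5.48-fold (3.30 to 9.69) higher and the cohesin acetyltransferase Esco2 8.73-fold (5.33 to 15.3).

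Genes of mitosis stood as high as those of S phase. Mitotic cyclins and kinases had 20 of 22 higher with a median log2 ratio of 2.72, kinetochore genes 22 of 24 with 2.20, and spindle and cytokinesis genes 29 of 30 with 2.22; no member of these lists was lower. In cells of the narrow range these medians were 2.60, 2.44 and 2.81. Cyclin A2, Ccna2, stood at 154 and 17 CPM, 9.06-fold higher (6.03 to 14.2), and 13.7-fold (5.48 to 43.9) in the narrow range. Aurora kinase A, Aurka, which matures the spindle poles, stood at 97.8 and 8.18 CPM, 12-fold (6.71 to 23.5). Nusap1, a spindle microtubule protein, was at 449 and 50.4 CPM, 8.91-fold (7.03 to 11.4). The plus-end motor Kif11 was 8.89-fold higher (5.26 to 16.2), Spc25 of the outer kinetochore 7.21-fold (5.01 to 10.7), and Sgol1, the shugoshin that guards centromeric cohesion, 18.3-fold (9.12 to 42.9).

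Summed, the mitotic kinase, kinetochore and spindle lists were lowest in the deepest of the 3 classes of dividing cells, at 2908, 2558 and 6533 CPM against 3951, 4084 and 8135 CPM under 4000 UMIs. Nusap1 was at 561 CPM in dividing cells under 4000 UMIs, 630 at 4000 to under 10000 and 207 at 10000 or more. Kif11 stood at 113, 123 and 46.6 CPM and Spc25 at 231, 196 and 82.7 CPM over the same classes, while the kinase Melk went the other way with few UMIs, at 23.6, 29.5 and 36.1 CPM. The anaphase-promoting complex list was less uniform, with 5 of 14 higher, the fifth being the subunit Cdc27, and a median log2 ratio of 0.67. Its activator Cdc20 stood at 155 and 23.2 CPM, 6.71-fold higher (4.70 to 9.84), and its inhibitor Fbxo5 at 8.14-fold (5.49 to 12.5). The ubiquitin enzymes Ube2c and Ube2s were high in resting cells too, at 165 and 330 CPM, and were 2.69-fold (2.33 to 3.11) and 2.73-fold (2.47 to 3.02) higher in dividing cells.

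The promoters of S phase and mitotic genes were searched for known motifs. RefSeq windows of build GRCm38.p6, from 250 bases before to 50 after a start site, were searched on both strands for the E2F-type sites TTTCCCGC, TTTCGCGC, TTTGCCGC and TTTGGCGC, the CHR elements TTTGAA and TTTAAA, and the CCAAT box. E2F-type matches on opposite strands can overlap. E2F-type sites were in 31.2% of the 48 windows of the higher S phase genes outside the histones (43 of 52 genes matched), in 4.48% of the 67 windows of the higher mitotic genes (61 of 76 matched), in 4.75% of the 5429 windows of all measured genes, and in 2.26% of all 32851 windows. The mitotic share was thus near that of measured genes. CHR elements were in 22.9%, 68.7%, 20% and 27.6%, and CCAAT boxes in 58.3%, 73.1%, 38.4% and 37.4%, in the same order. Both a CHR element and a CCAAT box were in 55.2% of mitotic windows, 8.14% of those of measured genes and 10.7% of all windows. In the windows of the 527 lower genes (403 matched), E2F-type sites were in 1.47%, CHR elements in 17.9% and CCAAT boxes in 35.3%. These are counts of letters, not of binding.

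The 200 bases before RefSeq's start site are printed for 9 genes, with every match in capitals. For Rrm2 and Il7r they reach into the gene span of the annotation used for gene positions. Cdc6 (chr11:98907951-98908150, plus strand), Mcm7 (chr5:138171884-138172083, minus) and Rfc3 (chr5:151651209-151651408, minus) are the higher S phase genes outside the histones with an E2F-type site there that ranked first by the lower bound of the ratio's interval. Prc1 (chr7:80294276-80294475, plus), Kif11 (chr19:37376182-37376381, plus) and Ccnb1 (chr13:100786487-100786686, minus) are the same for mitotic genes with a CHR element and a CCAAT box. Cdk1 (chr10:69352913-69353112, minus) holds all 3 kinds, while Rrm2 (chr12:24708054-24708253, plus) holds a CCAAT box and Il7r (chr15:9529877-9530076, minus), the lowest of the genes ranked by interval, holds none.
Cdc6: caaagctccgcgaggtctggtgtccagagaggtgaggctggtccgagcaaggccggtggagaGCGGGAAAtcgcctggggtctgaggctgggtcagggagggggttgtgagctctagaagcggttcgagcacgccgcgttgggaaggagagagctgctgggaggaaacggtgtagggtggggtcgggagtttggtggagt
Mcm7: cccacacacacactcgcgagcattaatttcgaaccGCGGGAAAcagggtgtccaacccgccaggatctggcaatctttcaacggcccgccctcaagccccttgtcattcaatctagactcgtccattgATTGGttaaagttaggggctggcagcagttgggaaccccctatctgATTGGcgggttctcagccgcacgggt
Rfc3: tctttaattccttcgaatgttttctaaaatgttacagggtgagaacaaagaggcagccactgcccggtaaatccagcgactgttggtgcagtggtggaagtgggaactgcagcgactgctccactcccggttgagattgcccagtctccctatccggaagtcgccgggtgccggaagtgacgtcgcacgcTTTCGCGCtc
Prc1: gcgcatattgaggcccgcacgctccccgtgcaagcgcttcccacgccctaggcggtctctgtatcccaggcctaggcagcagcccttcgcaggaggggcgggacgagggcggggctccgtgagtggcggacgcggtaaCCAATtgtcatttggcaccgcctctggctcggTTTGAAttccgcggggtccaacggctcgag
Kif11: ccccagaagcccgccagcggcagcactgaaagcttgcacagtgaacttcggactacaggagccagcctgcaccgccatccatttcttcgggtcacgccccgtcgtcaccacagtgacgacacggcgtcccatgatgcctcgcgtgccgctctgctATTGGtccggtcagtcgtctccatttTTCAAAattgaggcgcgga
Ccnb1: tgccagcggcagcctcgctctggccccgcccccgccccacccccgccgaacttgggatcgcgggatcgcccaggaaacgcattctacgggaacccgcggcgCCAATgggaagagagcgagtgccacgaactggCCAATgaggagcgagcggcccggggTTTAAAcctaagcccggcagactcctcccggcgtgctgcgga
Cdk1: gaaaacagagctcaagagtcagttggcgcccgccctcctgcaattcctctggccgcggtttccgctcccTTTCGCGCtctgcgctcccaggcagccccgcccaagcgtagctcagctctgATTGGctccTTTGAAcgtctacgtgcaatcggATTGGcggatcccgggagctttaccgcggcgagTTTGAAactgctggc
Rrm2: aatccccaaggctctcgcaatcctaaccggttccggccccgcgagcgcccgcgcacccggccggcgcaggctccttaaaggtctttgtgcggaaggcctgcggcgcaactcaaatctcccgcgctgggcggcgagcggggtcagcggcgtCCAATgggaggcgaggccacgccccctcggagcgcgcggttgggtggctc
Il7r: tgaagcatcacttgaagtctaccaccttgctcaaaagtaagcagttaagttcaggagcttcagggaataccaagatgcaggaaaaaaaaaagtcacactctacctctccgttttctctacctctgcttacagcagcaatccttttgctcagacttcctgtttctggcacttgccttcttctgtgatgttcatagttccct

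Counted to the first base of the match, Prc1 and Kif11 had their CHR element 30 and 19 bases before the start site and a CCAAT box farther out, at 62 and 45 bases; Ccnb1 had its CHR element at 42 bases and CCAAT boxes at 99 and 67. The E2F-type sites of Cdc6, Mcm7 and Rfc3 began 138, 165 and 10 bases before the start site. In the cells, Cdc6, which loads the helicase, was 5.72-fold higher (3.67 to 9.35), the helicase subunit Mcm7 4.24-fold (3.37 to 5.39) and the clamp loader subunit Rfc3 4.46-fold (3.10 to 6.61). Prc1, which bundles the central spindle, was 7.25-fold higher (5.35 to 10.0), cyclin B1, Ccnb1, 7.05-fold (5.17 to 9.84) and the mitotic kinase Cdk1 6.49-fold (4.82 to 8.94).

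Most single dividing cells were above the 90th percentile of resting cells in S phase and mitotic genes at once. The S phase lists (100 genes) took a median of 168 of every 10000 UMIs in dividing and 42.2 in resting cells, and the mitotic lists (98 genes) 167 and 51.9. Set against the 90th percentile of resting cells in each list, 283 dividing cells (80.6%) were above in both, 35 in the mitotic lists only, 10 in the S phase lists only and 23 in neither. The 23 had a median of 2251 UMIs and 2 marker UMIs. Of the resting cells, 23 were above in both, with a median of 2395 UMIs. The highest resting cells reached 225 in the S phase lists and 311 in the mitotic lists, above the dividing medians. These limits are points in a range: 26 dividing cells lay within 10% of one.

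**Figure D2:**
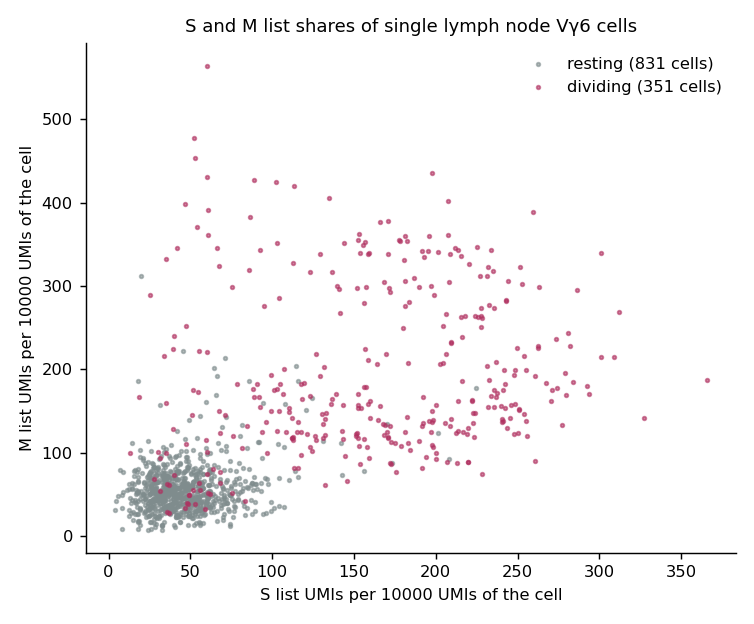
UMIs of the S phase lists (x) and of the mitotic lists (y) per 10000 UMIs of the cell, 1 point per cell, for 831 resting and 351 dividing pLN cells, Mki67 and Top2a left out. Resting cells cluster at low values and dividing cells spread out along both axes, with medians of 168 and 167 against 42.2 and 51.9.

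The dividing cells were then ordered by their mitotic share in 3 classes of 117 cells. Ccnb1 was at 80.0, 190 and 413 CPM from the lowest to the highest class and Cdc20 at 78.7, 129 and 293. Pcna was at 538, 633 and 393 CPM, and the helicase subunits Mcm3 and Mcm5 at 203, 237 and 122 and at 121, 161 and 75.8. Other S phase genes were not lowest in the class of highest mitotic share: Rrm2 was at 990, 1321 and 1335 CPM, 2810417H13Rik at 1996, 2994 and 3721, Tyms at 198, 270 and 241 and Hist1h1b at 427, 966 and 1606. The S phase lists together took medians of 132, 192 and 181 of 10000 UMIs, so they were not lower in the upper classes than in the lowest and do not order these cells along the cycle. Ccnb1 and Cdc20 belong to the lists that set the order, so their course is description.

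Outside the cycle lists, several of the genes with the highest ratios also act in division. Cdca3, a trigger of mitotic entry, stood at 168 and 20.4 CPM, 8.21-fold higher (5.65 to 12.3), and Shcbp1, a midbody protein, at 7.25-fold (4.84 to 11.3). Kpna2, an importin, was 7-fold higher (5.23 to 9.55), the formin Diaph3 5.46-fold (3.91 to 7.83), the nuclear lamina protein Tmpo 4.32-fold (3.61 to 5.20) and Syce2, known from meiotic chromosomes, 5.03-fold (3.45 to 7.57). Gm10282 was 8.09-fold higher (5.50 to 12.4). These 7 genes were also higher in the narrow range, from 5.56-fold for Tmpo to 10.0-fold for Shcbp1.

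Batf3 and Fabp5, also among the leading genes outside the cycle lists, were highest in the deepest dividing cells. Batf3 (chr1:191097847-191108945), an AP-1 family transcription factor, stood at 136 CPM in dividing and 25.9 CPM in resting cells, 5.25-fold higher (3.73 to 7.56). By depth class of dividing cells it was at 23.6, 44.7 and 283 CPM, and its ratio in the narrow range was 1.06 (0.336 to 3.21). It had a UMI in 46 of the 61 deepest cells, in 23 of the 154 of the middle class and in 7 of 136 under 4000 UMIs; deeper cells have more chances to show one, and the B cell gene Cd79a had a UMI in 4 of the 61. Fabp5, a fatty acid carrier, was 5.04-fold higher (3.60 to 7.24) over all and at 44.5, 66.6 and 246 CPM by class. Unlike for Batf3, its narrow-range interval lay above 1, at a ratio of 3.42 (1.25 to 10.7) from 15 UMIs against 6.

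Genes of growth were highest in the same 61 cells. Ribosome biogenesis genes had 5 of 21 higher (Npm1, Ncl, Nop58, Srm and Wdr12) and none lower, with a median log2 ratio of 0.70, but 1 of 19 higher, 3 lower and a median of -0.06 in the narrow range. They summed to 2655 CPM in resting and 2595 CPM in dividing cells of that range, 3042 in dividing cells of 4000 to under 10000 UMIs and 8765 in those of 10000 or more. The nucleolar protein Npm1 stood at 1803 and 703 CPM over all, 2.56-fold higher (2.39 to 2.75), at 1.05 (0.878 to 1.26) in the narrow range and at 3276 CPM in the deepest class. In single cells it took a median of 33.4 of 10000 UMIs in the deepest class, from 6.75 to 57.9, against 7.42 in the middle class. Nucleolin, Ncl, stood at 469, 545 and 1780 CPM by class and the polyamine enzyme Srm at 21.0, 31.6 and 178.

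Chaperones had 3 of 21 higher (Hspd1, Hsp90aa1 and Tcp1) and 2 lower (Hspa1a and Hspa1b), with a median log2 ratio of 0.66 and of -0.05 in the narrow range; of all measured genes 8.53% were higher and 9.48% lower. Hspd1, the mitochondrial chaperonin, stood at 560 and 189 CPM, 2.97-fold higher (2.60 to 3.39), at a ratio of 0.963 (0.694 to 1.33) in the narrow range and at 1041 CPM in the deepest class. Hsp90aa1 stood at 652, 1102 and 2508 CPM by class. The growth regulator Myc had 0 UMIs in dividing cells under 4000 UMIs, 5.46 CPM in the middle class and 48.9 CPM in the deepest, against 17.4 CPM in resting cells of the narrow range. The 61 cells carried a Cd3g UMI in every case and a Cd163l1 UMI in 57. Of 61, 1 had a Cd4 UMI and 2 a Cd8b1 UMI. Only 31 dividing cells, with a median of 2705 UMIs, had under 2 UMIs in every list of other lineages' markers, αβ T cells included. Against the 396 resting cells of the same limit, the log2 ratio of Batf3 was -1.03 and the ribosome biogenesis median -0.55. This limit removes deep cells first, so these values come from few and shallower cells.

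Nuclear transport and RNA handling genes stood between the growth and the division genes. Of 24, 16 were higher and none lower, with a median log2 ratio of 1.27, and 0.73 with 5 of 23 higher in the narrow range. They summed to 9305 CPM in resting and 16875 CPM in dividing cells of the narrow range, and 25933 CPM in the deepest class. The splicing factor Hnrnpa1 was 3.35-fold higher (2.86 to 3.93) over all and 1.14-fold (0.786 to 1.65) in the narrow range. Energy genes differed less: none of 40 oxidative phosphorylation genes passed 2-fold, with a median log2 ratio of 0.31, and 3 of 15 glycolysis genes (Pgk1, Tpi1 and Pgam1) were higher and 1 (Ldhb) lower, with 0.36. Pgk1, a glycolytic kinase, was 2.91-fold higher (2.18 to 3.96). Among proteasome core genes 1 of 18, Psma6, was higher, with a median of 0.44. Of all measured genes 8.53% were higher and 9.48% lower. Ribosomal protein genes took 17.7% of UMIs in dividing and 17.5% in resting cells.

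**Figure D3:**
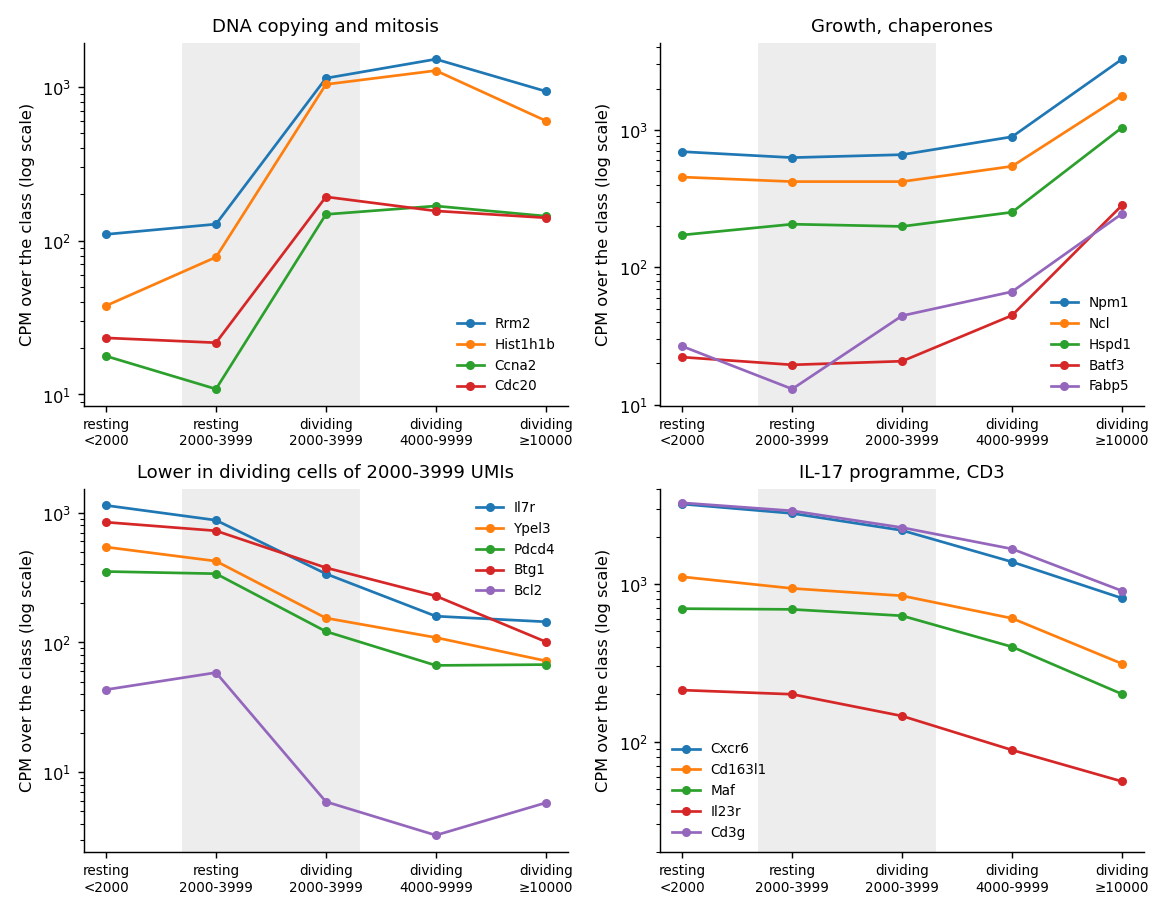
CPM (y, log scale) of named genes over 5 classes of pLN cells by UMIs per cell (x), with the shaded pair of classes of the narrow range. Division genes differ within the shaded pair, Npm1, Ncl, Hspd1 and Batf3 are near equal within it and highest in the class of 10000 or more (Npm1 at 3276 CPM), and Il7r is lower in all dividing classes.

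Among genes lower in dividing cells, Il7r (ENSMUSG00000003882, chr15:9505788-9530176, minus strand), which encodes the receptor chain for IL-7, ranked first by its interval under the same limits. It stood at 191 CPM in dividing, 739 in one-UMI and 1022 in resting cells, 5.35-fold lower in dividing cells (4.79 to 5.98). In the narrow depth range it was at 338 and 875 CPM, 2.59-fold lower (2.10 to 3.21). UMIs per cell were 1.17 in dividing and 1.81 in resting cells, so this gene was lower per cell on average as well as by share. By depth class of dividing cells it was at 372, 159 and 144 CPM, or 1.04, 0.948 and 2.03 UMIs per cell. The deepest class was thus above the mean of all resting cells in UMIs per cell.

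Bcl2, the survival gene that IL-7 is known to sustain, had 10 UMIs in 351 dividing cells and 69 in 831 resting cells. These are 4.64 and 47.0 CPM, 10.1-fold lower (5.19 to 22.1), and in the narrow range 9.88-fold (2.48 to 85.8). The 2 UMIs behind the narrow-range value of dividing cells leave its size loosely bounded. In the BCL2 family list 3 of 13 were lower (Bcl2 and the death genes Bbc3 and Bcl2l11), beside 9.48% of all measured genes, and none higher. The median log2 ratio was -0.39, and Mcl1 was at 36.2 and 60.0 CPM. In the narrow range 1 of 13 was higher and 1 lower, with a median of -0.08. Bbc3 had 3 and 7 UMIs there and Bcl2l11 had 4 and 10, dividing before resting. Their ratios of 0.585 (0.0977 to 2.56) and 0.546 (0.125 to 1.89) had intervals that included 1. The cytokine receptor list had 11 of 18 lower and none higher, with a median of -1.11, and 3 of 18 lower with -0.45 in the narrow range. Il18r1, the IL-18 receptor, was at 304 and 1000 CPM, 3.29-fold lower (3.00 to 3.61), and 1.51-fold (1.28 to 1.79) in the narrow range. The interferon-γ receptor Ifngr1 was 3.63-fold lower (3.09 to 4.27) and 1.86-fold (1.35 to 2.58).

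Genes known as brakes on growth were split. Of 21, 8 were lower and 2, Cdkn2a and Cdkn2c, higher, with a median log2 ratio of -0.67, and 4 lower and 2 higher of 19 in the narrow range. Btg1, an antiproliferative factor, stood at 210 and 796 CPM, 3.78-fold lower (3.39 to 4.22), and 1.93-fold (1.56 to 2.38) in the narrow range. Its relative Btg2 was 3.29-fold lower (2.56 to 4.24) and the glucose uptake inhibitor Txnip 4.20-fold (3.12 to 5.70). Outside the list, Ypel3 stood at 103 and 486 CPM, 4.70-fold lower (4.04 to 5.49), and the translation inhibitor Pdcd4 at 80.7 and 346 CPM, 4.29-fold (3.60 to 5.13). In the narrow range these were 2.75-fold (2.01 to 3.8) and 2.79-fold (1.96 to 4.03). Both were also lower per cell on average, at 0.635 and 0.858 UMIs for Ypel3 and 0.496 and 0.611 for Pdcd4. Dividing cells of 10000 or more UMIs held 1.02 UMIs of Ypel3 and 0.951 of Pdcd4 per cell, above the means of all resting cells.

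The kinase inhibitors went both ways. Cdkn1b, which encodes p27, was at 35.7 and 66.1 CPM, 1.85-fold lower (1.36 to 2.53), and at 56.3 and 60.8 CPM in the narrow range. Cdkn2c, which encodes p18, was at 139 and 67.4 CPM, 2.06-fold higher (1.64 to 2.62), and 3.92-fold (2.56 to 6.15) in the narrow range. By depth class of dividing cells it was at 236, 186 and 46.6 CPM. In resting cells it was at 72.2 CPM under 2000 UMIs, 65.1 in the narrow range and 37.5 at 4000 or more. The deepest dividing cells thus lay within the range of the resting classes. Cdkn2a had 75 UMIs against 9, 5.67-fold higher (2.83 to 12.9), with a ratio of 1.37 (0.254 to 7.33) in the narrow range.

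**Figure D4:**
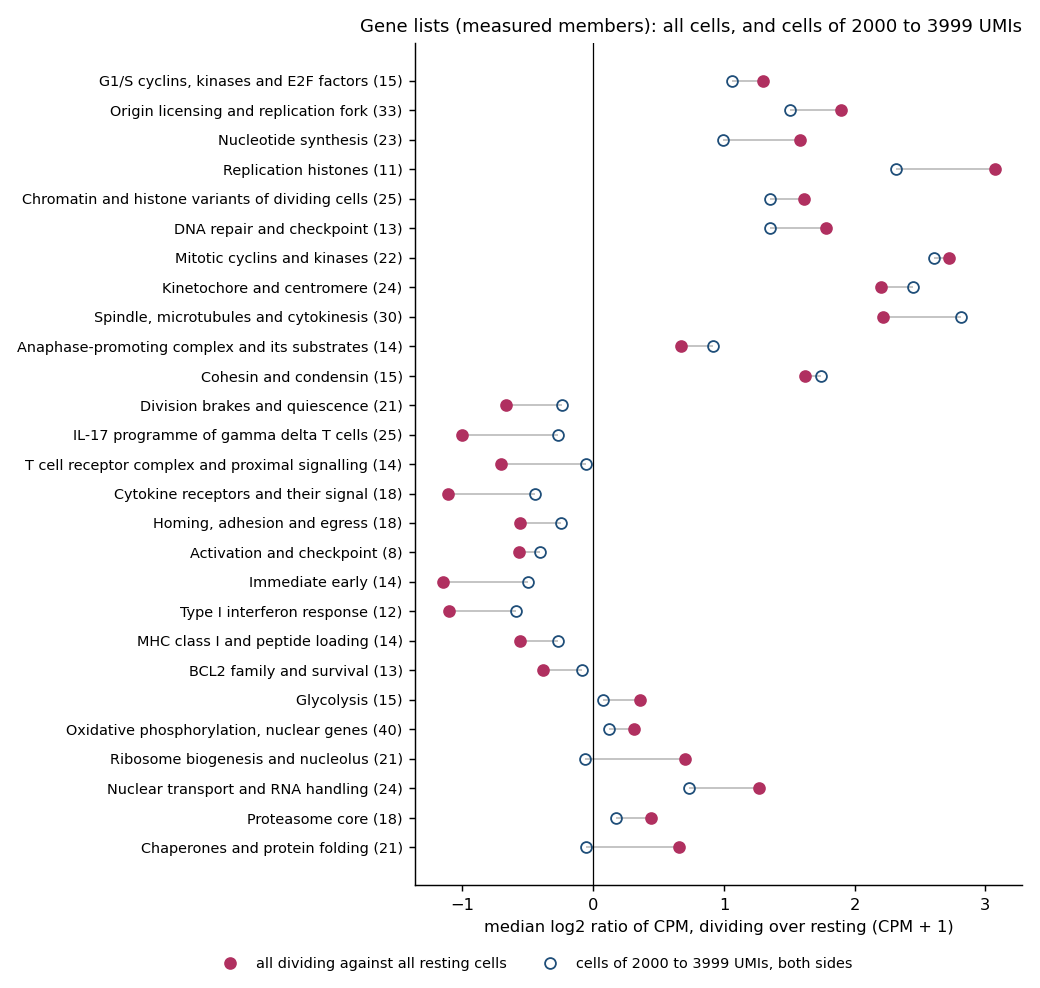
Median log2 ratio of CPM, dividing over resting (x, pseudocount 1 CPM), for 27 gene lists (y, measured members in brackets), over all cells (filled) and over cells of the narrow range (open). Division lists stay between 0.92 and 2.81 in the narrow range, while the IL-17 list moves from -1.0 to -0.27 and ribosome biogenesis from 0.70 to -0.06.

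Identity genes of the IL-17 programme were a smaller share of the RNA in dividing cells, and the gap was smaller at like depth. Of 25, 13 were lower and none higher, with a median log2 ratio of -1.0; in the narrow range 2 of 25 were lower and the median was -0.27. The list summed to 12967 CPM in resting and 10577 CPM in dividing cells of that range, and to 6938 and 3867 CPM in dividing cells of 4000 to under 10000 and of 10000 or more. In resting cells, too, the sum was lower with depth, at 14386 CPM under 2000 UMIs and 10826 CPM in the 21 cells of 4000 or more.

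Cd163l1, the scavenger receptor that marks these cells, stood at 534 and 1027 CPM, 1.93-fold lower (1.78 to 2.08), and at 842 and 938 CPM in the narrow range, 1.11-fold (0.956 to 1.30). The transcription factor Maf stood at 360 and 690 CPM over all, and its narrow-range ratio was 0.911 (0.762 to 1.09). The residency chemokine receptor Cxcr6 was 2.31-fold lower (2.20 to 2.42) over all and 1.28-fold (1.17 to 1.41) in the narrow range. Il23r and Ccr6 were 2.41-fold (2.00 to 2.90) and 3.14-fold (2.37 to 4.19) lower over all, and their narrow-range intervals included 1, at 1.37-fold (0.962 to 1.99) and 1.43-fold (0.825 to 2.55). The cytokines were near the detection limit, with 13 and 17 UMIs of Il17a and 2 and 2 of Il17f, dividing before resting.

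Counted in UMIs per cell, the median log2 ratio of the list was 0.78, with Il7r and Ramp1 among the lower members. Cd163l1 had 3.28 UMIs per dividing and 1.81 per resting cell, Cxcr6 8.02 and 5.32, and Maf 2.21 and 1.22. In the deepest class Cd163l1 reached 4.39 UMIs per cell, above 2.41 in dividing cells under 4000 UMIs. Of 14 T cell receptor genes 2, Cd3g among them, were lower and none higher, beside 9.48% lower and 8.53% higher of all measured genes. The median log2 ratio was -0.71 over all and -0.06 in the narrow range, where 1 of 14 was higher and none lower. Cd3g stood at 1479 and 3104 CPM, or 9.09 and 5.48 UMIs per cell, and the kinase Zap70 at 86.2 and 163 CPM.

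Over all cells, the interferon and immediate early lists had a larger share of lower members than the 9.48% of all measured genes. Type I interferon genes had 8 of 12 lower and a median log2 ratio of -1.10, and 3 of 12 lower and 1 higher with -0.59 in the narrow range. Isg15 was 3.40-fold lower (2.40 to 4.87) and 3.48-fold (1.60 to 8.63) there. Immediate early genes, which also mark handling stress, had 7 of 14 lower, none higher and a median of -1.15. In the narrow range 2 of 14 were higher and 2 lower, with a median of -0.50, beside 9.95% higher and 8.95% lower of all genes there. Jun was 3.05-fold lower (2.36 to 3.98) and 1.60-fold (0.946 to 2.78) there. MHC class I genes had 1 of 14 lower, H2-Q4, a share no higher than that of all measured genes, with a median of -0.56. The activation and checkpoint list had 2 of 8 lower (Cd27 and Tnfrsf18) and 1 higher (Havcr2). In the narrow range 1 of 7 was lower and 1 higher. Cd27, a costimulatory receptor, had 26 UMIs in dividing and 98 in resting cells over all, 5.54-fold lower (3.56 to 8.90).

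Homing genes had 5 of 18 lower (Itgae, Itgb3, Itga4, Ccr6 and Cxcr6) and 2 higher (Cxcr4 and Ccr7), with a median log2 ratio of -0.56. Of all measured genes 9.48% were lower and 8.53% higher. In the narrow range 3 of 18 homing genes were lower and 1 higher, with a median of -0.24. Itgae, the integrin chain CD103, was 4.68-fold lower (3.14 to 7.14), while the egress receptor S1pr1 was at 82.1 and 104 CPM and its regulator Klf2 at 605 and 907 CPM. In the narrow range S1pr1 was 1.17-fold (0.735 to 1.88) and Klf2 1.18-fold (1.02 to 1.37) lower. The nuclear RNA Malat1 took 1.28% of UMIs in dividing and 3.98% in resting cells, but 78.9 and 70.3 UMIs per cell. Lymphotoxin β, Ltb, was 3.36-fold lower (3.15 to 3.59) by share and at 3.75 and 3.62 UMIs per cell. Cd7, the creatine kinase Ckb, the calcitonin-type receptor partner Ramp1 and Gm4955 completed the lowest genes, from 3.49-fold to 4.00-fold lower over all and from 1.46-fold to 1.68-fold in the narrow range.

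Dendritic and myeloid markers were the one list of another lineage with a sum above 1000 CPM, at 2211 CPM in dividing and 1509 CPM in resting cells. Of 7 measured members 3 were higher, the MHC class II genes H2-Ab1, H2-Aa and H2-Eb1, and 2 were lower, Lyz2 and Tyrobp. H2-Ab1 stood at 297 and 121 CPM over all, 2.45-fold higher (2.07 to 2.91), at a ratio of 1.26 (0.829 to 1.91) in the narrow range, and at 162, 184 and 476 CPM by depth class. Lyz2 had 20 UMIs in dividing and 154 in resting cells, but the share of cells with a UMI went the other way, at 5.41% and 3.85%. In the authors' deposited table, too, its mean was 8.12-fold higher in cluster pLN_2, described below, than in pLN_1. In the narrow range none was higher and 2 were lower. The list summed to between 1162 and 1637 CPM in the 3 depth classes of resting cells and to 1590, 1954 and 2761 CPM in those of dividing cells. Of the 14 genes of the list, Clec9a, Itgax, Ccl22 and Csf1r had 0 UMIs in both. Cd74, also of the list, had a UMI in all 61 of the deepest dividing cells, at a median of 16.5 of 10000 UMIs. In resting cells of the narrow range 114 of 181 had one, at a median of 4.17. The part of cells with such markers in the other results was not tested.

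The same split of the other Vγ6 libraries was set beside these values, with no test. Before the thymus sort, CD4 and CD8 cells had been lysed by antibody and complement. In the thymus 289 of 2517 cells counted as dividing, with medians of 5036 UMIs per dividing and 1998 per resting cell. In the pool it was 79 of 2006 cells, with 3235 and 1262. The pool mixes lymph node, thymus and ear skin cells with no map to tissue, so tissue and division cannot be told apart in its ratios. Of 404 genes higher in pLN and measured in the thymus, 304 were also at least 2-fold higher there, as were 8.20% of all 5465 genes. Of 369 lower genes 90 were also lower there, as were 4.12% of all. In the pool 323 of 423 were also higher and 185 of 445 also lower, beside 12.3% and 10.8% of 5964 genes.

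Among division genes, Rrm2 was 9.33-fold higher in pLN, 14.6-fold in the thymus and 23-fold in the pool, and Nusap1 8.91, 13.4 and 56.6-fold. Kpna2 and Aurka had smaller ratios in the thymus than in pLN, at 4.44 and 3.09, and larger ones in the pool, at 9.92 and 22.6. Rrm2 was at 1208, 869 and 939 CPM in dividing and at 129, 59.5 and 40.8 CPM in resting cells of pLN, thymus and pool. The growth genes Npm1 and Hspd1 had smaller ratios in the other libraries: Npm1 was at 1.49 in the thymus and 1.64 in the pool, and Hspd1 at 1.31 and 2.11. Il7r had a ratio of 0.187 in pLN, 0.391 in the thymus and 0.205 in the pool. Bcl2 was at 4.64 and 47.0 CPM in pLN, dividing before resting, but 69.6 and 73.3 CPM in the thymus and 49.9 and 57.9 CPM in the pool. Of the IL-17 genes, Cd163l1 had a ratio of 0.192 and Cxcr6 of 0.230 in the thymus, below their pLN ratios of 0.519 and 0.433. The authors' deposited table names several thymus clusters. Their shares among dividing and resting thymus cells were not tested, so the mix of cells and division cannot be told apart in these ratios.

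**Figure D5:**
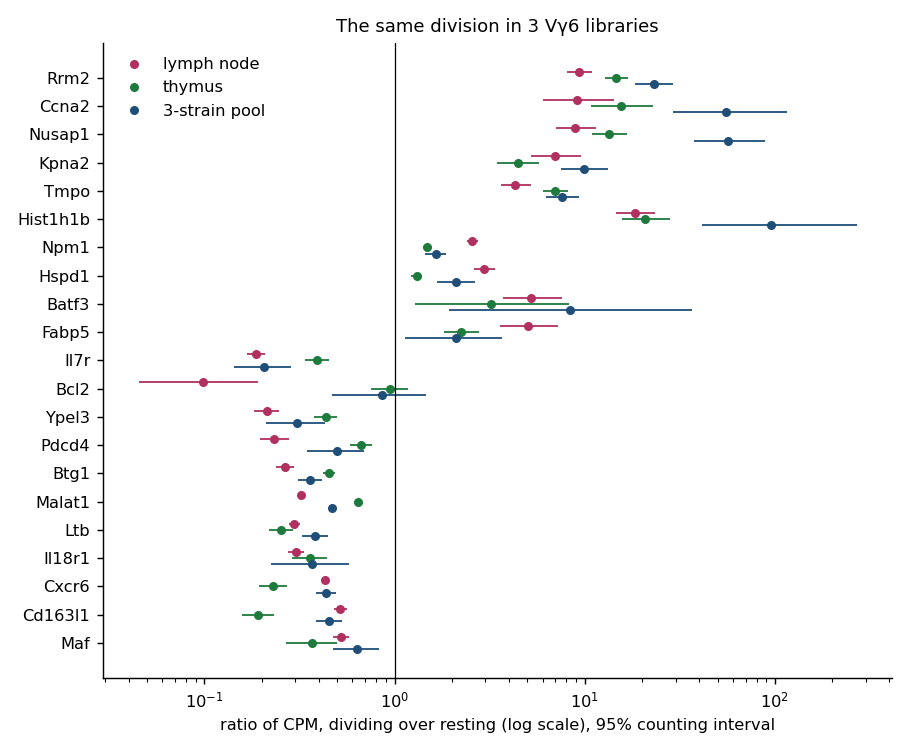
Ratio of CPM, dividing over resting (x, log scale), for named genes in the pLN, thymus and pooled Vγ6 libraries, with bars for 95% counting intervals and 1 library each. Bcl2 lies at 0.0986 in pLN and near 1 in the other libraries, and Hspd1 and Npm1 lie highest in pLN.

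The authors' deposited table gives mean expression in 2 clusters named for pLN; it comes from the same series and gives no independent support. Of 473 higher genes found in the authors' deposited table, 456 had a higher mean in its cluster pLN_2 than in pLN_1, and 516 of 527 lower genes a lower one.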

How the data were processed

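Single-cell RNA of 5 sorted γδ T cell libraries was used as deposited by the authors, as whole-number UMI counts for 27998 genes in each cell, not normalized. The submitters' processing notes name Cell Ranger 2.0, Seurat 2.3 and mm10. The authors' deposited table of other values holds mean expression per cluster, with each column summing to 10000. It was used for direction, and for the ratio of the pLN cluster means of Lyz2 and Ly6d. Barcodes with at least 200 genes and at most 10% mitochondrial UMIs were kept and UMIs were summed per class; Mki67 and Top2a entered no comparison. Ratios of CPM carry exact conditional binomial intervals (scipy 1.17.1), tested on simulated data; log2 medians use a pseudocount of 1 CPM.

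The members, the gene lists and the alternatives were chosen with earlier results of these data known. Named genes were the 12 highest and 12 lowest by the interval bound nearest 1 (a UMI in 20% of cells and 100 CPM on the higher side), the 10 highest outside the cycle lists, up to 4 per list and a preset group; Mki67, Top2a, mitochondrial, ribosomal protein and non-T marker genes were not ranked. A few genes that the rule covers are not reported here. Genes named outside this rule were chosen after their values were seen. Alternatives covered scaling (TMM factors from edgeR 4.0.16), thinning, depth, cell filters, doublets, the rule and the limits.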

Additional observations from a re-analysis of the deposited data

Results flagged for a closer look

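Ly6d, a surface protein best known from early B-lineage cells, went opposite ways in 2 libraries. In the pLN library it had 11 UMIs in dividing and 42 in resting cells, 5.10 and 28.6 CPM, a ratio of 0.178 (95% counting interval 0.0828 to 0.352). A UMI was present in 1.71% of dividing and 1.93% of resting cells, so the shares of cells were close and few cells held the UMIs. In the authors' deposited table its mean was 27.0-fold higher in cluster pLN_2 than in pLN_1. In the thymus library it had 190 and 250 UMIs, 121 and 59.5 CPM, a ratio of 2.04 (1.68 to 2.47). It was the only gene at least 2-fold lower in one and at least 2-fold higher in the other of these 2 libraries. It is 1 of the B cell markers, which summed to 72.8 CPM in dividing and 213 CPM in resting pLN cells. Each is 1 library, and the difference was not tested.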

How the results depend on the processing

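The counts of genes at least 2-fold higher and lower (474 and 527) depended on the limits: 956 and 1245 at 1.5-fold, 257 and 140 at 3-fold, 2031 and 2699 with no CPM minimum, and 183 and 112 at 100 CPM. Median-of-ratios factors gave 342 lower genes. In mean UMIs per cell, 6716 genes were higher and 9 lower. Cells with 2 or more UMIs in any list of other lineages' markers, αβ T cells included, are called non-T marker cells below. Without them, a limit that removes deep cells first, the counts were 943 and 1034.

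The dividing share (24.1%) was 5.94% without those cells, 16.4% with 4 or more marker UMIs required, 11.2% by Mki67 alone, 20.1% by Top2a alone, 29.5% in the narrow range, 20.8% in cells under 10000 UMIs and 20.7% after thinning. The share after thinning is of cells with at least 1500 UMIs only, which left out 418 resting cells. The depth ratio (3.07) was 1.96 without the non-T marker cells and 1.31 in the narrow range.

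In UMIs per cell, these medians turned positive on the log2 scale: division brakes 1.03, IL-17 genes 0.78, T cell receptor genes 1.09, cytokine receptors 0.75, homing 1.32, activation 1.66, immediate early genes 0.63, interferon genes 0.64 and MHC class I 1.22. So did Ccnd2 0.45, Btg2 0.082, Ltb 0.050, Il18r1 0.081, Malat1 0.17, Cxcr6 0.59, Il23r 0.53, Ccr6 0.15, Cd3g 0.73, Isg15 0.034 and Jun 0.19. The ribosome biogenesis median turned to -0.55 without the non-T marker cells, -0.062 in the narrow range and -0.14 under 10000 UMIs, and the chaperone median to -0.053 in the narrow range. Without the non-T marker cells, which left 31 dividing and 396 resting cells, Batf3 was at -1.03, Srm -0.65, Nop58 -0.22 and Isg15 0.090. H2-Ab1 was at -0.65, Lyz2 at 0.67 and Ly6d at 0.67 there. H2-Ab1, Lyz2 and Ly6d belong to the marker lists that set this filter, so a kept cell holds at most 1 UMI of each. Their values therefore cannot show how these genes depend on the removed cells, and no conclusion is drawn from them. In the narrow range Ncl was at -8.7e-05, Srm -1.46 and Hspd1 -0.054, and under 10000 UMIs Srm was at -0.47. The cause was not tested. Matching resting cells in UMIs paired only 20 of 351 cells within 10%. No paired analysis was possible because each group has 1 library.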

Other observations

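In the pool, 7 genes lay on the opposite side of 2-fold from pLN, and no difference was tested. H2-Ab1 was at 297 CPM in dividing and 121 CPM in resting pLN cells but at 69.9 and 215 CPM in the pool, and H2-Aa and H2-Eb1 went the same way. The metallothionein Mt1 was at 49.1 and 11.6 CPM in pLN and at 13.3 and 27.3 CPM in the pool, where dividing cells held 4 UMIs and the counting interval of the ratio included 1. Lef1, a transcription factor of immature T cells, was at 5.56 and 30.0 CPM in pLN and at 316 and 93.5 CPM in the pool. Slamf1 and Sertad3 were the other two, with pool intervals that also included 1.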
